A study of Mus musculus with 4 samples.

Results

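Memory CD4 T cells are described here as the cells that the authors' deposited annotation calls Mem Cd4. They numbered 2142 of 24143 annotated cells, and 27577 barcodes were present in all. The cells came from spleens of C57BL/6 mice, 1 single-cell RNA library per group, after a sort for live CD45+ cells of low forward and side scatter. Young WT gave 314 Mem Cd4 cells, aged WT 512, the aged miR-146a knockout 616 and the aged double knockout 700. WT mice carried 2 floxed, undeleted miR-155 alleles (miR155 fl/fl), the miR-146a knockout lacked miR-146a in the whole body, and the double knockout lacked miR-146a in the whole body and miR-155 in T cells. The Cre driver of that deletion is not given in the labels. Aged mice of all 3 genotypes were 15 months old and were pooled, 3 to 6 mice per group. For the young mice neither age nor pool size is given in the labels.

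Memory CD4 T cells are helper cells that have met antigen. They carry surface CD44, have mostly lost the lymph node homing receptors that naive cells use, and accumulate with age. Within them, follicular helper cells (Cxcr5, Pdcd1, Icos, Il21) help B cells in germinal centres, and regulatory T cells, defined by the transcription factor Foxp3, restrain other T cells. miR-146a is induced by NF-kB and represses the signalling adaptors Traf6 and Irak1 upstream of it, while miR-155, processed from the Mir155hg transcript, supports T cell activation and follicular helper responses and represses inhibitors such as Socs1 and Inpp5d.

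The 2 deleted microRNAs are shown first, because the knockout comparisons turn on them. Capitals mark the seed (bases 2 to 8), and the sequences are RefSeq's on GRCm38.p6, the mm10 build. miR-146a-5p lies on the minus strand at chr11:43374435-43374456, and miR-155-5p on the plus strand at chr16:84714143-84714165.
miR-146a-5p: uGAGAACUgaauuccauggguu
miR-155-5p: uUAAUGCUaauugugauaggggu

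The seed of miR-146a pairs with AGTTCTC in a transcript, or AGTTCTCA with the added A, and the seed of miR-155 with AGCATTA or AGCATTAA. The sense strand of each annotated 3′ UTR (GENCODE M21, mm10) was searched, and the 8-base match contains the 7-base one. Windows of 30 bases are shown for the targets whose levels are given later, with the match in capitals. A match is a description of the letters and not evidence of a working site.
Traf6, chr2:101697959-101697966, plus strand: ctctggtgttgAGTTCTCAtttagttgact
Irak1, chrX:74015393-74015400, minus strand: tcagaggtcaaAGTTCTCAtgcttggaagt
Irak2, chr6:113694266-113694273, plus strand: gtgtctccgcaAGTTCTCAagttcaggact
Notch1, chr2:26459263-26459270, minus strand: gaaaataaactAGTTCTCAgagccttgatt
Icos, chr1:61000041-61000047, plus strand: tcagtctagacAGTTCTCttcagcctgtag
Socs1, chr16:10784206-10784213, minus strand: cgctgtgccgcAGCATTAAgtgggggcgcc
Inpp5d, chr1:87719838-87719845, plus strand: tgtttttaaaaAGCATTAAagaaaaccatc
Jarid2, chr13:44920093-44920100, plus strand: gattttgttttAGCATTAAactgttcaagt

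Of 12 literature targets of miR-146a, 8 held the 7-base match and 7 the 8-base match, against 11.2% and 4.07% of all 21020 3′ UTRs. Of 13 literature targets of miR-155, 10 held the 7-base match and 9 the 8-base match, against 8.29% and 2.99% of all. Published targets may have been picked through such matches, so these shares describe the lists and test nothing. The listed targets have longer 3′ UTRs, with medians of 1490.5 and 1782 bases against 961 bases overall. Among 3′ UTRs of like length, the share with the 8-base match was 10.7% for Traf6, which held 4 of them, and 4.38% for Irak1, which held 2. It was 3.52% for Irak2, 4.73% for Notch1, 3.85% for Socs1, 2.03% for Inpp5d and 3.24% for Jarid2, and the share with the 7-base match was 19.4% for Icos.

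The Mem Cd4 cells held 768630, 996568, 1343830 and 1396613 UMIs in young WT, aged WT, the miR-146a knockout and the double knockout, the order kept for every series of 4 values below. The median cell held 2253, 1751, 1994 and 1788.5 UMIs. Ribosomal protein genes took 31.5% of UMIs in young WT and 22.8% to 23.9% in the aged libraries. Levels are CPM, the UMIs of a gene scaled to the total UMIs of the summed Mem Cd4 cells, so that a lower level can mean fewer cells that make a transcript or less of it per cell. 3 UMIs equalled 3.90, 3.01, 2.23 and 2.15 CPM. With 1 library per group there is no replicate and no test. Brackets give 95% intervals, which cover counting error only and not differences between mice, pools or preparations. For levels and ratios they treat each UMI as independent. They thus leave out the spread between cells and are too narrow where few cells hold most UMIs of a gene. S100a8, a neutrophil gene, was at 6.51, 8.03, 426 and 505 CPM in these cells, and the source of its UMIs in the knockout libraries was not tested. Between 4 and 20 Mem Cd4 barcodes per library also occurred in another library, and at most 1 of them was a Mem Cd4 cell in both.

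The share of Mem Cd4 cells among annotated cells was 4.60% (exact Clopper-Pearson interval 4.12 to 5.13), 8.68% (7.98 to 9.43), 12.7% (11.8 to 13.7) and 10.6% (9.88 to 11.4). It was highest in the miR-146a knockout, and no interval overlapped another. Among CD4 cells, which are Mem Cd4 and Nai Cd4 together, the share was 18.4%, 51.4%, 64.6% and 53.4%. That share was 2.79-fold (2.48 to 3.13) higher in aged than in young WT, 1.26-fold (1.17 to 1.36) higher without miR-146a than in aged WT, and lower in the double knockout than in the miR-146a knockout (ratio 0.826, 0.771 to 0.885). Double knockout and aged WT differed by less than counting error (ratio 1.04, 0.961 to 1.12). The denominators moved too: Nai Cd4 cells numbered 1390, 485, 337 and 611. Levels given below for Mem Cd4 and Nai Cd4 cells summed therefore also carry the share of Mem Cd4 cells in each library.

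**Figure D1:**
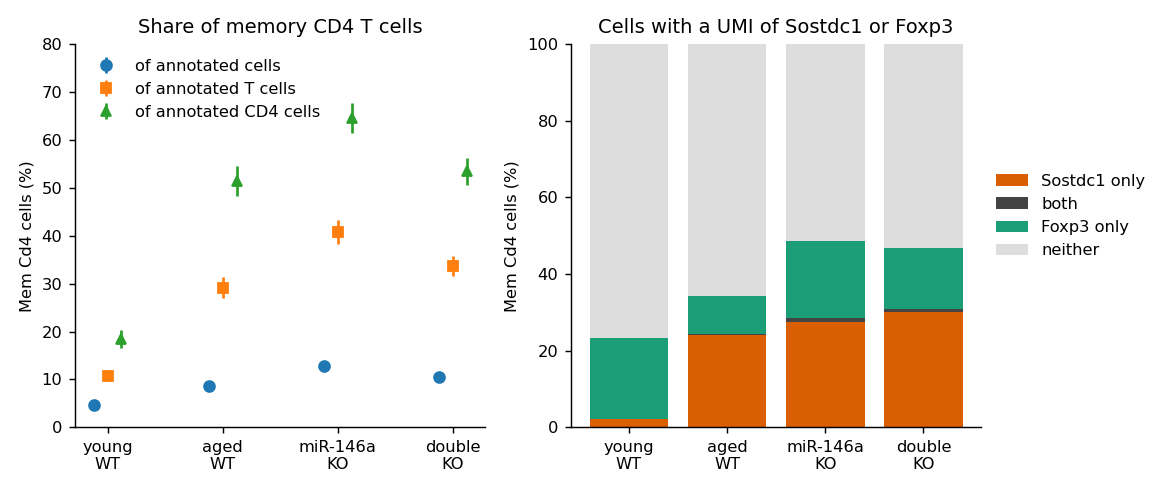
Left, percent of annotated cells, annotated T cells and annotated CD4 cells that are Mem Cd4 in each library, with exact 95% intervals. Right, percent of Mem Cd4 cells, at their own depth, with a UMI of Sostdc1 only, of Foxp3 only, of both or of neither. Sostdc1 only was found in 2.23% of young WT cells and 24.0% to 30% of cells in the aged libraries, and both in at most 1.00%.

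The name was checked against marker genes. Cd3e, a chain of the T cell receptor complex, was detected in 52.1% to 60.6% of Mem Cd4 cells thinned to 1000 UMIs, against at most 1.03% of Fo B cells. Cd4 itself was sparse, with a UMI in 20.5%, 26.7%, 26.2% and 26.1% of Mem Cd4 cells and at most 0.192% of Fo B cells. Cd8a was detected in at most 1.95% of Mem Cd4 cells, and 6 natural killer genes together had 5, 6, 4 and 3 UMIs. At the cells' own depth, 25.8%, 29.5%, 78.6% and 80.3% of cells held 2 or more UMIs of 10 myeloid genes. For 10 B cell genes these shares were 55.7%, 70.7%, 66.7% and 47.6%. How the annotation was made is not stated, and it can rest on the same transcripts, so a contrast with Nai Cd4 cells describes the name and tests nothing. In that contrast Pdcd1 was 33.8-, 18.3-, 6.28- and 17.996-fold higher in Mem Cd4 cells, Icos 5.23-, 4.64-, 2.34- and 3.36-fold, and Cd44 4.51-, 2.88-, 1.35- and 2.09-fold.

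The 5 marker genes fixed for the label are Sostdc1, Angptl2, Icos, Pdcd1 and Foxp3. Genes of naive cells were less clear cut in the young library. The ratio of Mem Cd4 to Nai Cd4 cells for Ccr7, which directs T cells to lymph nodes, was 0.458 in young WT and 0.1797 to 0.277 in the aged libraries. At the cells' own depth, which was highest in young WT, a UMI of Ccr7 or of Lef1, a transcription factor of naive T cells, was present in 178 of 314 young Mem Cd4 cells. It was present in 144 of 512 in aged WT, 139 of 616 in the miR-146a knockout and 150 of 700 in the double knockout. The young cells under the name thus held more of the naive programme, and each comparison with them is given with and without these cells where that matters.

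Markers of other cell types were read as whole lists in the summed Mem Cd4 cells. The 10 B cell genes summed to 1408, 1615, 1561 and 1121 CPM, against 53123 to 57713 in Fo B cells, with all 10 present in each library. The 10 myeloid genes summed to 414, 569, 1487 and 1570 CPM, with 9, 9, 10 and 8 of them present, and Nai Cd4 cells held 347, 426, 1301 and 1254 CPM of the same list. The 2 CD8 genes summed to at most 57.2 CPM, the 6 natural killer genes to at most 6.51 and the 5 natural killer T and gamma delta T genes to at most 45.5. The 5 plasma cell genes summed to 89.8, 228, 219 and 205 CPM, and the 7 erythroid and platelet genes to 10.4, 44.2, 127 and 55.1. Myeloid levels were higher in both knockouts than in aged WT, and erythroid and platelet levels mainly in the miR-146a knockout. Their part in the results was not tested. Leaving out cells with at least 2 UMIs of 11 defining markers of other types kept 276, 446, 545 and 644 cells. This choice was made after seeing the data, and S100a8, S100a9 and Lyz2 are not among the 11. It moved none of the T cell list medians by more than the counting error of their members. The planned filter, on at least 2 UMIs of the lists of other types, kept only 56, 53, 21 and 39 cells. Under it 14 list medians moved further and 53 did not, and 6 values of named genes changed sign.

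The first comparison asks how memory CD4 T cells of aged WT spleens differ from those of young WT spleens. Among 7127 genes with at least 20 UMIs over both libraries, 16.6% were at least 1.5-fold higher and 7.46% at least 1.5-fold lower in aged WT, counted by size alone, whatever the interval. Of genes with at least 100 UMIs, 264 were higher and 93 lower. The balance depends on the scaling: 68.9% of the genes past 1.5-fold were higher with totals as the scale, 51.7% with edgeR's trimmed mean (TMM) factors and 49.0% with ribosomal protein and mitochondrial genes left out of the total. Those scalings moved the median log2 ratio of all genes from 0.11 to −0.02 and −0.04. Log2 ratios here carry 1 added count.

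Among the named genes higher with age, those with the largest ratios were scarce in young cells. Sostdc1 (ENSMUSG00000036169, chr12:36314139-36318452, GENCODE M21 on mm10 as for all positions here), which encodes a secreted protein that blocks BMP and Wnt signals, was at 50.7, 616, 880 and 1048 CPM. All 3 aged libraries stood far above the young one, and aged WT was 12.1-fold (8.78 to 17.2) higher than young WT. In thinned cells it was detected in 1.95%, 19.8%, 24.5% and 27.0% of Mem Cd4 cells, against at most 0.301% of Fo B cells. In young WT, 5 cells held 92.3% of its 39 UMIs, and in aged WT 125 cells shared 614 UMIs, 4.91 each on average. So with age more cells held Sostdc1. Positive cells of young WT averaged 5.57 UMIs, but they numbered only 7, too few to compare the level per positive cell.

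Angptl2 (ENSMUSG00000004105, chr2:33216069-33247717), a secreted angiopoietin-like protein, was at 11.7, 125, 123 and 158 CPM, low in young WT and close together in the aged libraries (10.7-fold, 5.47 to 24.0, in aged against young WT). The osteopontin gene Spp1 (ENSMUSG00000029304, chr5:104435118-104441050) had no UMI in young WT and was at 195, 255 and 454 CPM in the aged libraries. Against a floor of 3 UMIs in the young library it was at least 49.9-fold higher in aged WT. Few cells carried it: 34 cells held the 194 UMIs in aged WT, and 5 of these cells held 65.5%. Il1r2 (ENSMUSG00000026073, chr1:40074079-40125231), the decoy receptor for interleukin 1, was at 2.60, 95.3, 211 and 178 CPM, from 2 UMIs in young WT (36.6-fold, 9.87 to 307).

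Tnfsf8, the CD30 ligand, was at 112, 624, 563 and 654 CPM, 5.58-fold (4.45 to 7.07) higher in aged than in young WT. Lag3, an inhibitory receptor that binds MHC class II, was at 52.0, 467, 554 and 529 CPM, 8.97-fold (6.48 to 12.7) higher. For both genes the 3 aged libraries lay together and the young one apart. Gpm6b, a membrane proteolipid, was at 39.0, 476, 322 and 393 CPM (12.2-fold, 8.42 to 18.3). Hmgn3, a nucleosome-binding protein, rested on 1 young UMI against 51 (39.3-fold, 6.75 to 1584). The transcription factor Bhlhe40 was at 10.4, 94.3, 134 and 114 CPM (9.06-fold, 4.42 to 21.6), and the DNA repair gene Mgmt at 6.51, 69.2, 47.6 and 37.9 CPM (10.6-fold, 4.35 to 33.8). These 10 genes led the 129 that passed the rule for naming in this direction.

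The young cells with naive genes bear on the size of these values. Without the cells holding a UMI of Ccr7 or Lef1, a choice made after seeing the data, 136 young and 368 aged WT cells remained. The log2 ratio was then 2.61 for Sostdc1 (3.57 over all cells), 2.83 for Angptl2 (3.28), 3.61 for Il1r2 (4.63), 2.10 for Lag3 (3.13), 2.02 for Tnfsf8 (2.47), 2.80 for Gpm6b (3.56), 2.73 for Hmgn3 (4.33), 1.93 for Bhlhe40 (3.03), 2.36 for Mgmt (3.17) and 1.57 for Pdcd1 (2.18). All 10 kept their direction. Of the 9 age-associated genes measured, a list made with these data known, 8 were at least 1.5-fold higher and none lower over all cells, and the median of 3.13 became 2.40 over the 8 still measured.

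Pdcd1 (ENSMUSG00000026285, chr1:94038305-94052553), which encodes the inhibitory receptor PD-1, was at 59.8, 277, 422 and 468 CPM, 4.63-fold (3.38 to 6.47) higher in aged than in young WT. Icos (ENSMUSG00000026009, chr1:60977927-61000320), a costimulatory receptor, was at 124, 289, 289 and 355 CPM (2.34-fold, 1.85 to 2.98). Both were lowest in young WT. Foxp3 (ENSMUSG00000039521, chrX:7573644-7595245) went the other way within Mem Cd4 cells, at 114, 68.2, 134 and 120 CPM, lower in aged than in young WT (ratio 0.596, 0.428 to 0.827). Aged WT was thus the lowest of the 4 libraries for Foxp3, and it was detected in 10.4%, 6.73%, 13.0% and 10.2% of thinned cells.

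**Figure D2:**
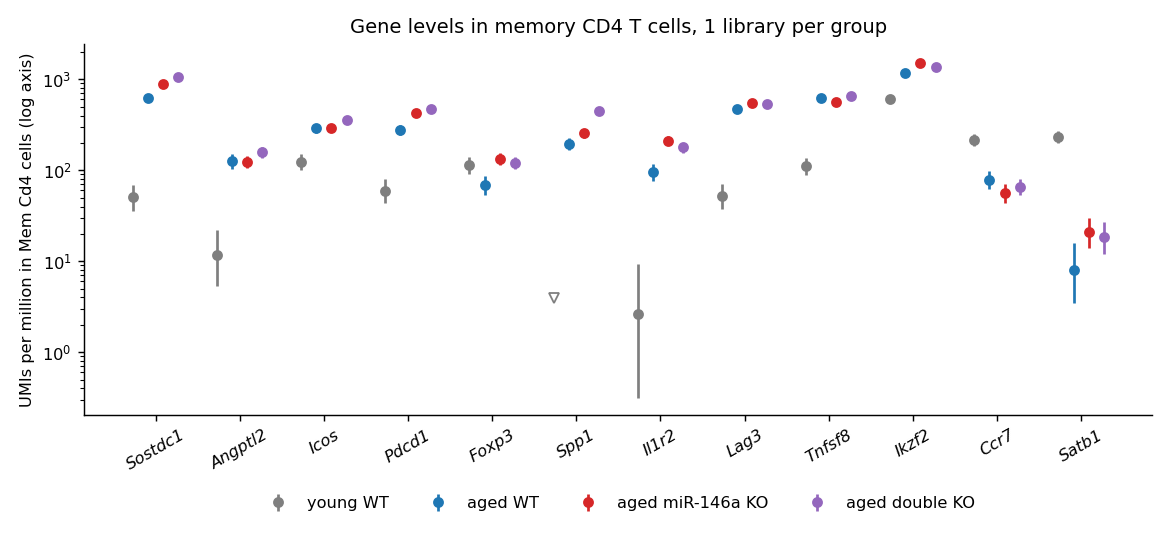
Level of 12 genes in the summed Mem Cd4 cells of each library (CPM, log axis), with exact Poisson 95% intervals; the open triangle marks the floor of 3 UMIs for Spp1 in young WT, which had none. Sostdc1, Angptl2, Pdcd1, Spp1, Il1r2, Lag3 and Tnfsf8 were low in young WT and high in the aged libraries, Ccr7 and Satb1 the reverse, and Foxp3 was lowest in aged WT.

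Of 12 naive T genes measured, 9 were at least 1.5-fold lower in aged WT and none at least 1.5-fold higher, with a median log2 ratio of −1.42. Satb1, a chromatin organiser, was at 232, 8.03, 20.8 and 18.6 CPM, and Ccr7 at 217, 78.3, 55.8 and 65.9 CPM. Both were high in young WT alone. Klf2, which drives expression of exit and homing receptors, was at 1120, 669, 399 and 426 CPM, and Il7r, at 173, 247, 220 and 170 CPM, had the highest ratio of the list. Without the cells holding a UMI of Ccr7 or Lef1 the median was −1.16 over the 8 members still measured.

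The rule for naming was passed by 27 genes lower in aged WT. Ly6c1, a surface protein, had 70 UMIs in young WT and none in any aged library, at least 30.3-fold lower in aged WT. Igfbp4 had 50 UMIs in young WT and 3 in aged WT (21.6-fold lower, 6.98 to 108). Ifi206 was at 94.97 and 16.1 CPM in young and aged WT, the actin crosslinker Actn1 at 118 and 23.1, the kinase Txk at 117 and 30.1, and the Rap activator Rasgrp2 at 204 and 64.2. Without the cells holding a UMI of Ccr7 or Lef1 the log2 ratio was −3.29 for Satb1 (−4.69 over all cells), −2.17 for Igfbp4 (−4.05) and −1.95 for Ifi206 (−2.50). Itm2a was at 91.1 and 24.1 CPM, and Pdlim1 at 101 and 29.1.

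Of 17 follicular helper genes measured, 14 were at least 1.5-fold higher in aged WT and none lower, with a median log2 ratio of 1.22 against 0.11 over all genes. The list shares Pdcd1, Icos and Angptl2 with the markers of the label. Cxcr5, the receptor that brings cells to B cell follicles, was at 32.5, 91.3, 58.8 and 73.7 CPM (2.81-fold, 1.79 to 4.56). Il21, the cytokine that helps B cells, was at 6.51, 46.2, 27.5 and 35.8 CPM (7.10-fold, 2.83 to 22.9). The regulator Maf was at 116, 378, 441 and 391 CPM and the regulator Tox at 133, 295, 296 and 339. Bcl6, the defining factor of these cells, had only 2, 9, 9 and 17 UMIs. Without the cells holding a UMI of Ccr7 or Lef1 the median was 0.98.

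Inhibitory receptors and Tox had 4 of 7 measured members at least 1.5-fold higher and none lower (median log2 ratio 0.95), and Btla, at 58.5 and 71.2 CPM, was the lowest of them. Of 15 memory and activation genes, 9 were higher and 2 lower (median 0.99, and 0.43 without the cells holding a UMI of Ccr7 or Lef1, over 13 members). S100a6, a calcium-binding protein of effector and memory cells, was at 301, 1205, 1226 and 1513 CPM, and Cd44 at 57.2, 115, 118 and 110. The 2 lower members were Crip1, at 1066 CPM in young WT and 526 in aged WT, and Ccr2, at 22.1 and 7.02.

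Regulatory T genes were mixed with age: 9 of 16 measured were at least 1.5-fold higher and 4 lower (median 0.69). Ikzf2 (ENSMUSG00000025997, chr1:69531214-69687245), which encodes Helios, was at 602, 1169, 1528 and 1368 CPM, 1.94-fold (1.74 to 2.17) higher in aged WT. Nrp1, a surface receptor of thymic regulatory cells, was at 96.3, 331, 278 and 296 CPM, and Itgae, the integrin CD103, at 9.11, 39.1, 106 and 71.6. Besides Foxp3, the lower members were Il2ra, the interleukin 2 receptor alpha chain, at 71.6, 19.1, 32.7 and 26.5 CPM (ratio 0.266, 0.149 to 0.456), Lrrc32 at 62.4 and 6.02, and Gpr83 at 59.8 and 24.1. Within Mem Cd4 cells Foxp3 and Il2ra were thus lower in aged WT while Helios was higher. With Nai Cd4 cells added, the ratio was 1.11 (0.709 to 1.70) for Il2ra, 1.53 (1.05 to 2.22) for Gpr83 and 0.538 (0.275 to 0.986) for Lrrc32. The lower levels of Il2ra and Gpr83 were thus not seen over all CD4 cells, where the share of Mem Cd4 cells also differed.

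Of 17 NF-kB response genes, 9 were at least 1.5-fold higher and none lower (median 0.63). Nfkbia, the feedback inhibitor, was at 364, 689, 938 and 861 CPM, Icam1 at 28.6, 79.3, 115 and 73.7, and Cd83 at 55.9, 119, 202 and 164. Nfkbid had the lowest ratio, at 36.4 CPM in young WT and 25.1 in aged WT. Type I interferon genes lay the other way, with 10 of 19 lower and 1 higher (median −0.60), from Ifi213 at 29.9 and 11.04 CPM to Oas1a at 11.7 and 20.1. The interferon gamma list was near the whole (3 of 15 higher, none lower, median 0.09), though Cxcl10 had 1 UMI in young WT and 35 in aged WT. Of 19 cytokine and T cell receptor signalling genes, 7 were higher and none lower (median 0.25), led by the transcription factor Batf at 55.9, 245, 384 and 381 CPM.

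The remaining lists had few measured members. Among 12 chemokine and homing receptors 6 were higher and 4 lower (median 0.16), with Cxcr4 at 2 and 32 UMIs. Among 15 genes of the immediate early and heat shock list, known to respond to tissue handling, 5 were higher and 1 lower (median 0.44), from Hspa1b with 1 and 22 UMIs to Nr4a1 at 52.0 and 29.1 CPM. Of 8 Th1 and cytotoxic genes 4 were higher (median 0.57), of 2 Th2 genes none and of 3 Th17 genes 1. Of the effector cytokines, Ifng had 9, 30, 25 and 45 UMIs and Il4 4, 10, 9 and 19, whereas Il17a, Il5, Il13 and Il22 had none in any library. The cell cycle gene Mki67 had 2, 3, 4 and 5 UMIs. The cell cycle list had 2 of 4 higher and 1 lower (median 0.54). Literature targets of miR-146a had 4 of 9 higher and 1 lower (0.51), and those of miR-155 3 of 10 higher (0.12). The 9 pan T cell genes were all within 1.5-fold (median 0.15).

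Inside the annotation, Sostdc1 and Foxp3 marked cells that scarcely overlapped. A UMI of Sostdc1 but not Foxp3 was found in 7, 123, 169 and 210 cells, of Foxp3 but not Sostdc1 in 66, 51, 125 and 111 cells, of both in 0, 2, 6 and 7 cells, and of neither in 241, 336, 316 and 372. A UMI missing at this depth does not show that a cell lacks the gene. With every cell thinned to 1000 UMIs, Foxp3 was detected in 1 of 100 Sostdc1-positive cells in aged WT, against 8.15% (5.68 to 11.3) of the other cells. In the miR-146a knockout it was 2.07% (0.429 to 5.93) against 16.6% (13.3 to 20.4), and in the double knockout 2.16% (0.592 to 5.44) against 13.2% (10.3 to 16.5). The intervals were apart in each of the 3 aged libraries, and young WT had too few Sostdc1-positive cells to read.

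The other marker genes divided unequally between these cells. In cells with Sostdc1, Spp1 was detected in 16.0%, 20.7% and 17.3% of the 3 aged libraries in turn, against 2.96%, 2.02% and 2.40% of the other cells. Lag3 was detected in 38.0%, 51.0% and 47.0% against 26.4%, 28.0% and 29.5%, and Angptl2 in 14.0%, 19.3% and 18.4% against 7.65%, 6.73% and 8.38%. Pdcd1 was detected in 28.0%, 33.1% and 41.6% against 19.8%, 24.7% and 28.3%. Il1r2 was detected in 7%, 6.90% and 5.41% against 4.69%, 11.7% and 10.4%, the lower value with Sostdc1 in both knockouts, with intervals that overlap. Icos was as frequent with Sostdc1 as without, at 23.0%, 23.4% and 27.0% against 23.7%, 23.8% and 27.3%. Spp1 thus stood out with Sostdc1, and Icos not at all. In cells with Foxp3, Ikzf2 was detected in 91.2%, 81.8% and 91.4%, against 56.9%, 70.0% and 63.1% of the others.

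Genes of the cells with Sostdc1 only and with Foxp3 only were compared within each aged library. Between these groups 12.8% of genes were at least 1.5-fold higher with Sostdc1 and 18.4% lower in aged WT, 12.7% and 15.5% in the miR-146a knockout, and 13.4% and 16.3% in the double knockout. Tnfsf8 was at 1105 CPM with Sostdc1 and 41.3 with Foxp3 in aged WT, a ratio of 26.8 (10.4 to 99.0), and the ratio was 41.5 and 19.6 in the knockouts. Gpm6b differed 9.09-, 10.7- and 9.98-fold. Slamf6, a receptor that sustains contact of T and B cells, differed 3.01-, 7.84- and 4.40-fold, and Cd200, a follicular helper surface protein, 4.33-, 6.68- and 5.81-fold. Il21 was at 75.4, 73.1 and 61.0 CPM in cells with Sostdc1 only, from 20, 30 and 28 UMIs, and had 0, 0 and 1 UMI in cells with Foxp3 only. Cd4 itself was 3.13-, 2.18- and 2.02-fold higher with Sostdc1.

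Other genes were higher in the cells with Foxp3. Tnfrsf9 (ENSMUSG00000028965, chr4:150914562-150946102), the receptor 4-1BB, was at 351, 593 and 657 CPM in cells with Foxp3 only and at 41.5, 80.4 and 84.9 in cells with Sostdc1 only. Itgae was at 175, 192 and 216 CPM with Foxp3 and had 0, 2 and 0 UMIs with Sostdc1, and Klrg1, a receptor of terminally differentiated cells, was at 103, 119 and 82.1 CPM against no UMI. Both sides held the same order in all 3 aged libraries. Ifngr1, the interferon gamma receptor, was at 474, 354 and 311 CPM with Foxp3 and 45.3, 43.8 and 47.9 with Sostdc1, and Ikzf2 at 1764, 2156 and 2286 CPM against 649, 818 and 642. Ccl5 was alike on both sides in aged WT (299 and 336 CPM) but at 1269 and 1206 CPM with Foxp3 in the knockouts, against 92.6 and 41.4 with Sostdc1. Ccl5 is also very high in other T cells of these libraries and 5 cells held 40.8% to 50.6% of its UMIs in the aged libraries.

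Against the cells with neither gene, cells with Sostdc1 only held more follicular helper genes: 8, 8 and 9 of 17 measured were at least 1.5-fold higher in aged WT, the miR-146a knockout and the double knockout, with medians of 0.49, 0.42 and 0.64. The background in the same contrasts was 10.8%, 10.1% and 11.7%. Regulatory genes were lower there, in 5 of 12, 10 of 14 and 9 of 14, where 10.1%, 11.9% and 10.2% of all genes were lower. Cells with Foxp3 only had 6 of 11, 3 of 15 and 8 of 14 regulatory genes higher than cells with neither, against backgrounds of 21.6%, 11.9% and 12.9%, and none lower, against 11.2%, 9.71% and 10.1%. Cells with a UMI of a sparse gene are slightly deeper: the medians were 1996, 2189 and 1975 UMIs with Sostdc1 only and 1688.5, 1823 and 1657.5 with neither. No name beyond these genes is given to either group.

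The difference with age was also read within these cells, where young WT had at least 50 of them. Among cells with Foxp3 only, 51 aged against 66 young, 21.6% of all genes were at least 1.5-fold higher in aged WT and 10.2% lower. Of the regulatory genes 9 of 12 were higher and 3 lower (median 0.89), with Tnfrsf9 at 81.2 CPM in young and 351 in aged WT (4.32-fold, 2.26 to 8.71) and Itgae with 1 and 17 UMIs. Of the naive T genes 1 of 9 was higher and 7 lower (median −1.02), and of the follicular helper genes 7 of 8 were higher (median 1.02). Among cells with neither gene, 336 against 241, where 17.1% of all genes were higher and 7.54% lower, regulatory genes were higher in 10 of 14 and lower in 3 (median 1.12), follicular helper genes higher in 12 of 16 (1.23) and naive T genes lower in 9 of 12 (−1.86). The directions of these 3 lists were thus the same in cells with Foxp3 and in cells with neither gene.

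**Figure D3:**
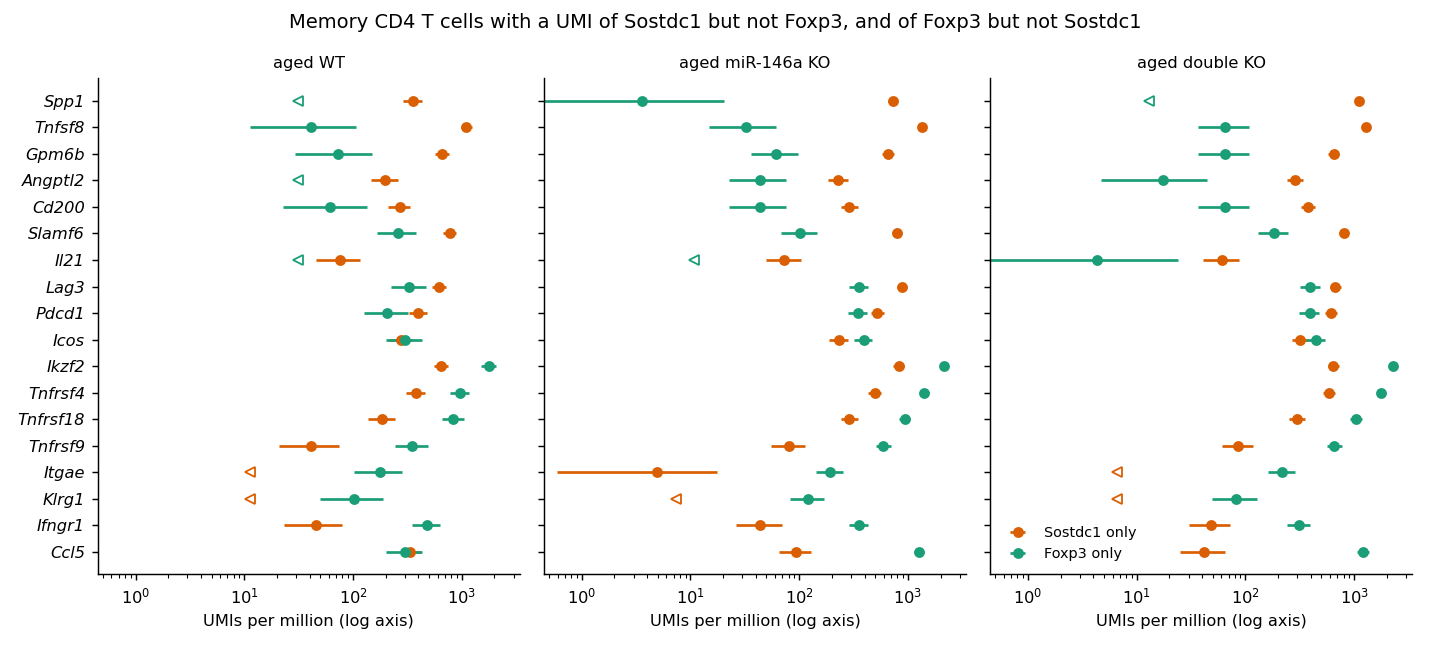
Level of 18 genes (CPM, log axis) in Mem Cd4 cells with a UMI of Sostdc1 but not Foxp3 and in those with Foxp3 but not Sostdc1, in each aged library, with exact Poisson 95% intervals; open triangles mark the floor of 3 UMIs where a group had none. Spp1, Tnfsf8, Gpm6b, Angptl2, Cd200, Slamf6 and Il21 were higher with Sostdc1, and Ikzf2, Tnfrsf4, Tnfrsf18, Tnfrsf9, Itgae, Klrg1 and Ifngr1 with Foxp3.

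The direction of Foxp3 with age differed between Mem Cd4 cells alone and all CD4 cells. Mem Cd4 cells made up 18.4% of CD4 cells in young WT and 51.4% in aged WT. The part of this mix, or of where the annotation divides CD4 cells, was not tested. Cells annotated Nai Cd4 held Foxp3 at 2.07, 36.5, 75.1 and 37.8 CPM. Mem Cd4 cells held 81.5%, 51.5%, 61.9% and 66.3% of its UMIs in annotated cells, and unannotated barcodes held 9, 24, 22 and 21 more. With Mem Cd4 and Nai Cd4 cells summed, Foxp3 was at 22.9, 51.4, 113 and 80.7 CPM. It was then 2.25-fold (1.69 to 2.99) higher in aged than in young WT, where Mem Cd4 cells alone gave a ratio of 0.596. At the cells' own depth, a UMI of Foxp3 was present in 4.17%, 8.63%, 17.9% and 12.0% of all CD4 cells. Ikzf2 in the same sum was at 123, 642, 1201 and 876 CPM.

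Among the annotated cells of each library, most Sostdc1 UMIs lay in Mem Cd4 cells. These held 90.7%, 86.1%, 90.4% and 83.8% of its UMIs in annotated cells, and Il21 was similar at 83.3% to 90.2%. In the 3 aged libraries the share was lower for Spp1, at 56.7%, 71.3% and 82.9%. For Il1r2 it was 88.8%, 56.3% and 55.5%. Sostdc1 was also at 30.3 CPM in Nai Cd4 cells of the miR-146a knockout. In the 71 NK cells of the double knockout it was at 69.5 CPM, from 14 UMIs. Unannotated barcodes, outside these shares, held 0, 76, 240 and 261 further UMIs of Sostdc1. Early Act Cd8 cells, 35 and 43 of them, held Sostdc1 at 162 and 196 CPM in the miR-146a and double knockout, and the cells annotated as T/B doublets at 110, 55.9 and 132 in the 3 aged libraries. Il1r2 was at 124, 552 and 267 CPM in Early Act Cd8 cells of the aged libraries, above Mem Cd4 cells in the 2 knockouts. In aged WT only 14 cells carried this name, too few to set its value against Mem Cd4 cells. Angptl2 was at 123 CPM in both types of the miR-146a knockout. Over all CD4 cells Sostdc1 was at 9.39, 291, 573 and 555 CPM, 31.0-fold (22.4 to 44.1) higher in aged WT than in young WT and 1.97-fold (1.78 to 2.17) higher in the miR-146a knockout than in aged WT. The double knockout and the miR-146a knockout differed there by less than counting error (ratio 0.969, 0.898 to 1.05).

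**Figure D4:**
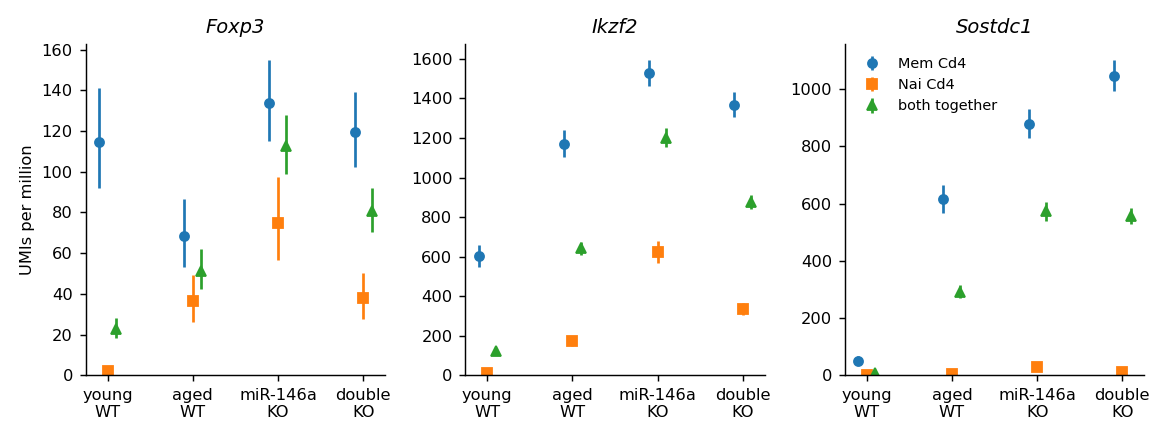
Level of Foxp3, Ikzf2 and Sostdc1 (CPM) in Mem Cd4 cells, Nai Cd4 cells and both summed, in each library, with exact Poisson 95% intervals. Foxp3 was lower in aged than in young WT among Mem Cd4 cells (114 and 68.2) but higher in the sum (22.9 and 51.4).

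The second comparison asks what differs in memory CD4 T cells of aged mice that lack miR-146a. Among 7964 genes, 6.96% were at least 1.5-fold higher in the miR-146a knockout than in aged WT and 7.70% lower, and with at least 100 UMIs 85 were higher and 62 lower. The median over all genes was −0.02. Of the 5 markers, Sostdc1 was 1.43-fold (1.29 to 1.58) higher, Pdcd1 1.52-fold (1.32 to 1.77) and Foxp3 1.96-fold (1.48 to 2.63). Icos (ratio 1.00, 0.858 to 1.17) and Angptl2 (0.979, 0.771 to 1.25) did not differ beyond counting error within Mem Cd4 cells. With Nai Cd4 cells added, both were higher, Icos 1.36-fold (1.18 to 1.56) and Angptl2 1.35-fold (1.07 to 1.71). Sostdc1 gained in UMIs per positive cell, 6.75 against 4.91, and a little in positive cells, 28.4% against 24.4% at their own depth with intervals that overlap. Il1r2 was 2.22-fold (1.75 to 2.83) higher and came from 110 cells against 34.

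Regulatory T genes had the highest median of the T cell lists. Of 19 measured, 11 were at least 1.5-fold higher and 1 lower, with a median log2 ratio of 0.70. Klrg1 led it, at 15.1 CPM in aged WT and 49.9 in the miR-146a knockout (3.31-fold, 1.87 to 6.24). Itgae was at 39.1 and 106 CPM (2.72-fold, 1.90 to 3.98), and Tnfrsf9 at 127 and 299 (2.35-fold, 1.92 to 2.89). Tnfrsf18 (GITR) was at 378 and 601 CPM and Tnfrsf4 (OX40) at 556 and 906, costimulatory receptors that regulatory cells carry. Ctla4, their inhibitory receptor, was at 95.3 and 141 CPM (1.48-fold, 1.15 to 1.92), and Gpr83, at 24.1 and 14.9, was the lower member. Il2ra was at 19.1 and 32.7 CPM, a ratio of 1.72 whose interval, 0.982 to 3.11, includes 1.

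The share of cells with Foxp3 only, at the cells' own depth, was 20.3% in the miR-146a knockout and 9.96% in aged WT. Within cells with Foxp3 only, 125 against 51, 2 of 14 regulatory genes were at least 1.5-fold higher and 1 lower (median 0.09), where 11.7% and 14.2% of all genes were. Tnfrsf4 was 1.47-fold (1.17 to 1.87) and Tnfrsf9 1.69-fold (1.16 to 2.53) higher within them, Itgae 1.09-fold (0.623 to 2.01) and Klrg1 1.16-fold (0.557 to 2.63). Within cells with neither Foxp3 nor Sostdc1, 10 of 15 were higher and none lower (median 0.76), where 9.16% of all genes were higher and 8.77% lower. In the sum of all CD4 cells, Tnfrsf9 was 2.99-fold (2.47 to 3.64) and Klrg1 4.03-fold (2.56 to 6.60) higher, the same direction as in Mem Cd4 cells alone.

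Follicular helper genes did not move together. Of 17 measured, 2 were at least 1.5-fold higher and 2 lower (median −0.11). Pdcd1 and Rgs16, a regulator of G protein signalling at 63.2 and 96.0 CPM, were the higher members. Cxcr5, at 91.3 and 58.8 CPM (ratio 0.644, 0.470 to 0.880), and Il21, at 46.2 and 27.5 (0.596, 0.376 to 0.940), were the lower ones. In the same summed cells Pdcd1 was thus higher and Cxcr5 and Il21 lower. Slamf6 was at 583 and 459 CPM and Cd200 at 154.5 and 135.

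Of the 17 NF-kB response genes, 4 were at least 1.5-fold higher and none lower (median 0.30). Nfkbid was at 25.1 and 55.8 CPM (2.22-fold, 1.40 to 3.65), Relb, an NF-kB subunit, at 69.2 and 131 (1.89-fold, 1.42 to 2.54), Nfkb2, its partner, at 56.2 and 104 (1.85-fold, 1.35 to 2.57) and Cd83 at 119 and 202 (1.70-fold). Within the subsets, 4 of 17 were higher in cells with Sostdc1 only (median 0.37), 5 of 15 higher and 2 lower in cells with Foxp3 only (0.26), and 7 of 17 higher in cells with neither (0.34). The background of higher genes there was 9.24%, 11.7% and 9.16%.

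Of the literature targets of miR-146a whose matches are printed above, levels were low. Traf6 had 7, 13, 23 and 13 UMIs (1.31-fold, 0.637 to 2.82, without miR-146a) and Irak2 had 16, 12, 25 and 30 (1.54-fold, 0.748 to 3.38). Irak1 was at 36.4, 25.1, 42.4 and 39.4 CPM (1.69-fold, 1.04 to 2.82), and Notch1 at 23.4, 44.2, 63.3 and 40.8 (1.43-fold, 0.984 to 2.11). Of these the interval of Irak1 alone lay above 1, and Icos, with a 7-base match, was level in Mem Cd4 cells but 1.36-fold (1.18 to 1.56) higher with Nai Cd4 cells added. Relb, which holds no match in the annotated 3′ UTR, was 1.89-fold higher. Of the 9 measured members 2 were at least 1.5-fold higher and none lower (median 0.50).

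Lower in the miR-146a knockout were 5 named genes. Itgb1, the beta 1 integrin of memory cells, was at 470 CPM in aged WT and 233 in the miR-146a knockout (ratio 0.496, 0.428 to 0.574), and Thy1, a pan T surface protein, at 343 and 188 (0.549, 0.464 to 0.647). Ms4a4b, a T cell membrane protein, was at 1183 and 723 CPM. 9930111J21Rik2 was at 92.3 and 26.8 CPM, and Zfp330 at 70.2 and 28.3. Without the cells holding a UMI of Foxp3, Il2ra or Ikzf2, which left 82 cells against 136, the log2 ratio of Thy1 was −0.18 (−0.86 over all cells). The double knockout was low as well for Itgb1 (296), Thy1 (184) and 9930111J21Rik2 (22.2). Naive T genes were lower in 5 of 11 and higher in 1 (median −0.51), with Klf2 at 669 and 399 CPM and Satb1, at 8.03 and 20.8, the higher one. Il6ra, the interleukin 6 receptor, was at 114 and 58.8 CPM (ratio 0.514, 0.381 to 0.691).

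Higher were Sdc4, a proteoglycan, at 14.0 and 52.1 CPM (3.71-fold, 2.07 to 7.13), the fatty acid binding protein Fabp5 at 12.0 and 43.9, the ubiquitin ligase subunit Asb2 at 36.1 and 101, Arl5a at 15.1 and 49.9, and C1qtnf12 at 10.0 and 37.2. Fabp5 had a log2 ratio of 0.11 without the cells holding a UMI of Foxp3, Il2ra or Ikzf2 (1.78 over all cells). Penk, the enkephalin precursor, was at 66.2 and 161 CPM (2.44-fold, 1.84 to 3.26). Within cells with Foxp3 only, Sdc4 was at 30.9 and 123 CPM and Penk at 124 and 239, against 4.87 and 75.5 in cells with Sostdc1 only in the miR-146a knockout. Tpm3-rs7 was at 7.81, 3.01, 305 and 297 CPM in Mem Cd4 cells and from 194 to 355 CPM in every annotated type of the 2 knockout libraries. It is a near-identical copy of Tpm3, which was at 468, 464, 285 and 226 CPM, and the counts of both are uncertain. The difference was not particular to memory CD4 T cells. Pygo1 had 261 UMIs over the annotated cells of aged WT, 17 of them in Mem Cd4 cells, and none in annotated cells of the other 3 libraries. The 4 libraries list the same genes, and whether their reads were assigned to genes in the same way was not tested, which bears on values of WT against knockout. Ccl5 (307 and 797 CPM) was left out of the named genes, as its level here was 2.25% of that in the type where it was highest.

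Medians of the remaining lists ran from −0.47 to 0.68, against −0.02 over all genes. Of 15 memory and activation genes 2 were higher and 1 lower (median 0.06), of 9 inhibitory receptors and Tox 2 higher (0.13), and of 9 age-associated genes 2 higher (0.39). Of 15 interferon gamma genes none was higher and 1, Irgm1 at 45.2 and 18.6 CPM, was lower (0.19), and of 18 type I interferon genes 1 was higher and 2 lower (0.14). Immediate early and heat shock genes had none higher and 3 of 17 lower (0.07), chemokine receptors 2 higher and 4 of 13 lower (−0.47), and cytokine and T cell receptor signalling 2 and 2 of 19 (−0.08). Of 12 Th1 and cytotoxic genes 3 were higher and 3 lower (0.02). Th17 had 3 of 4 higher (0.68), led by Ccr6 with 5 and 20 UMIs, and Th2 none of 2 (−0.19). Targets of miR-155 had 1 of 11 lower and none higher (0.18), the cell cycle list 1 of 5 each way (−0.03), and the 9 pan T genes 1 lower, Thy1 (−0.14).

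The third comparison asks what changes when T cells of the miR-146a knockout also lack miR-155. The deletion could not be read from these data. Mir155hg, the host transcript, was at 14.3, 26.1, 24.6 and 29.4 CPM in Mem Cd4 cells, from 11 to 41 UMIs, and the counted part of a transcript need not lie in the deleted one. Among 8282 genes, 5.08% were at least 1.5-fold higher in the double knockout than in the miR-146a knockout and 6.16% lower, fewer in each direction than in the other comparisons. With at least 100 UMIs 40 were higher and 47 lower, and the median over all genes was 0.02.

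Of the 5 markers of the label, 3 were slightly higher in the double knockout. Sostdc1 was 1.19-fold (1.10 to 1.29) higher, Angptl2 1.29-fold (1.05 to 1.59) and Icos 1.23-fold (1.07 to 1.40), all under 1.5-fold. Pdcd1 (1.11-fold, 0.990 to 1.24) and Foxp3 (0.893, 0.719 to 1.11) did not differ beyond counting error. With Nai Cd4 cells added, the ratios of Sostdc1 (0.969, 0.898 to 1.05), Angptl2 (1.04, 0.852 to 1.28) and Icos (1.03, 0.913 to 1.16) lay within counting error of 1, and Pdcd1 (0.877, 0.786 to 0.980) was lower. Spp1 was 1.78-fold (1.56 to 2.03) higher in Mem Cd4 cells, with 634 UMIs in 60 cells against 343 in 44 cells. A single cell of the double knockout held 202 of the 634 UMIs. The ratio without that cell was not read, so Spp1 is not ranked against the markers. Without the cells that held Sostdc1, the log2 ratio of Spp1 was 1.28 against 0.83 over all cells. It was 1.41 without the cells that held Foxp3, Il2ra or Ikzf2. Whether the single cell was among those kept was not read.

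Of 19 follicular helper genes, 4 were at least 1.5-fold higher in the double knockout and none lower (median 0.25), and the other 15 were within 1.5-fold. Ascl2, a transcription factor that turns on Cxcr5, was at 6.51, 30.1, 24.6 and 57.3 CPM, 2.33-fold (1.54 to 3.61) higher than in the miR-146a knockout. There 48 cells had it against 26, 1 of them with 11 of the 80 UMIs. Without the cells that held Sostdc1 its log2 ratio was 0.22, against 1.20 over all cells. Cd40lg, the ligand that activates B cells, was at 52.0, 67.2, 49.9 and 78.0 CPM (1.57-fold, 1.14 to 2.16), and Cd200 at 79.4, 154.5, 135 and 188 (1.39-fold, 1.14 to 1.68). The double knockout held the highest level of the 4 libraries for each of these. Cxcr5 was at 58.8 and 73.7 CPM and Il21 at 27.5 and 35.8, differences within counting error. Within cells with Sostdc1 only the list had 3 of 17 higher and none lower (median 0.32), where 9.01% of all genes were higher and 7.32% lower.

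The other named genes higher in the double knockout were the lysosomal protease Ctsl, the lipoprotein Apoe, Ppp1r14b and the mitochondrial protease Lonp1. Ctsl was at 2.60, 13.0, 20.8 and 56.6 CPM (2.71-fold, 1.74 to 4.34), and 39 cells had it against 21. With each cell thinned to 1000 UMIs the log2 ratio of Ctsl was 0.56, against 1.41. Apoe was at 14.3, 131, 161 and 325 CPM (2.02-fold, 1.72 to 2.39), with 5 cells holding 72.7% and 47.6% of its UMIs in the miR-146a and double knockout libraries. Both Ctsl and Apoe are macrophage genes as well. The myeloid list as a whole was at 1487 and 1570 CPM, with 1 of 8 measured members at least 1.5-fold higher and 1 lower. The macrophage gene Cd68 had the highest log2 ratio (1.53) and Fcer1g the lowest (−0.82), and Csf1r had 3 and 0 UMIs. The part of such cells or transcripts in Ctsl and Apoe was not tested. Ppp1r14b, a phosphatase inhibitor, was at 102 and 208 CPM (2.04-fold, 1.66 to 2.52). Without the cells holding Foxp3, Il2ra or Ikzf2 the log2 ratio of Lonp1 was −0.61 (1.37 over all cells). Lonp1 was at 13.4 and 35.8 CPM but at 32.1 in aged WT, so that the miR-146a knockout was low and the double knockout level with aged WT.

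Lower in the double knockout were Txnrd2, a mitochondrial thioredoxin reductase, at 40.2 and 15.0 CPM, and Pik3ip1, an inhibitor of PI3 kinase, at 41.7 and 16.5. Penk was at 161 and 86.6 CPM (0.537, 0.426 to 0.673). In cells with Sostdc1 only Penk was at 75.5 and 19.6 CPM (0.260, 0.109 to 0.559), in cells with neither Sostdc1 nor Foxp3 at 185 and 73.7 (0.398, 0.281 to 0.557), and in cells with Foxp3 only at 239 and 264 (1.10, 0.767 to 1.59). The lower level thus lay outside the cells with Foxp3.

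Regulatory genes had none of 19 higher and 2 lower (median −0.16). Itgae was at 106 and 71.6 CPM (0.673, 0.516 to 0.875) and Ebi3, a subunit of interleukin 35, at 37.2 and 19.3 (0.520, 0.313 to 0.846), while Tnfrsf4 was at 906 and 944 and Tnfrsf18 at 601 and 568. Within cells with Foxp3 only, 1 of 14 was higher and 1 lower (0.15), among 9.18% and 7.89% of all genes. In the sum of all CD4 cells, Foxp3 was lower in the double knockout (ratio 0.716, 0.592 to 0.865), as were Ikzf2 (0.730, 0.689 to 0.772), Tnfrsf9 (0.726, 0.632 to 0.835) and Klrg1 (0.485, 0.345 to 0.678). The corresponding ratios in Mem Cd4 cells alone were closer to 1, at 0.893, 0.895, 0.895 and 0.761.

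NF-kB genes had none of 17 higher and 1 lower, Icam1 at 115 and 73.7 CPM (0.639, 0.493 to 0.826), with a median of −0.12. Relb was at 131 and 99.5 CPM (0.760, 0.604 to 0.955). In cells with neither Sostdc1 nor Foxp3, 5 of 17 were lower (median −0.32) where 7.45% of all genes were, and in cells with Foxp3 only 2 of 17 were higher and none lower (0.03). Literature targets of miR-146a had 3 of 9 lower and none higher (−0.18): Traf6 with 23 and 13 UMIs, Cxcr4 with 35 and 21, and Notch1 (0.645, 0.453 to 0.913). The first 2 intervals include 1.

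No literature target of miR-155 was at least 1.5-fold higher or lower among 10 measured (median −0.10). Socs1, which restrains cytokine signalling, was at 72.9, 73.3, 83.3 and 98.1 CPM (1.18-fold, 0.910 to 1.52), Jarid2, a partner of the Polycomb complex, at 45.5, 52.2, 52.1 and 58.0 (1.11-fold, 0.799 to 1.56) and Inpp5d, the phosphatase SHIP1, at 40.3, 38.1, 44.6 and 43.7. Their levels did not differ beyond counting error between the 2 knockouts. Ifngr1 was at 190 and 142 CPM, the lowest ratio of the list (0.747). Maf was at 441 and 391 CPM, Peli1 at 242 and 237, and Ets1 at 496 and 502.

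Medians of the other lists ran from −0.25 to 0.24 in the double knockout, against 0.02 over all genes. Of all genes 5.08% were at least 1.5-fold higher and 6.16% lower. Memory and activation genes had 2 of 16 higher and none lower (median 0.18), among them Anxa2, a membrane-binding protein, at 173 and 280 CPM (1.61-fold, 1.37 to 1.91). Cytokine and T cell receptor signalling had 2 of 19 higher (0.03), Il6ra at 58.8 and 95.2 CPM (1.62-fold, 1.22 to 2.17) and Stat4, a transducer of interleukin 12, at 70.7 and 114 (1.61-fold, 1.24 to 2.10). Il6ra was thus between its levels in the miR-146a knockout and aged WT (114). Type I interferon genes had 3 of 18 higher and 1 lower (0.02), the interferon gamma list none of 15 either way (−0.18), naive T genes 1 of 11 higher (0.24), and immediate early genes 1 of 16 lower (−0.07). Th1 and cytotoxic genes had 2 of 11 higher (−0.003), Th2 1 each way of 4 (−0.25) and the cell cycle list 2 of 5 lower (−0.21). Chemokine receptors had 1 higher and 2 lower of 15, and age-associated genes 1 of 9 higher (Spp1). The pan T, Th17 and inhibitory receptor lists had no member past 1.5-fold.

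Against aged WT, which has both microRNAs, 6.69% of 7972 genes were at least 1.5-fold higher in the double knockout and 7.45% lower. Regulatory genes had 7 of 18 higher and 1 lower (median 0.45) and follicular helper genes 2 of 19 higher (0.22). NF-kB genes had 3 of 17 higher (0.25) and age-associated genes 4 of 9 higher (0.41). These share libraries with the comparisons above and are given beside them as values.

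**Figure D5:**
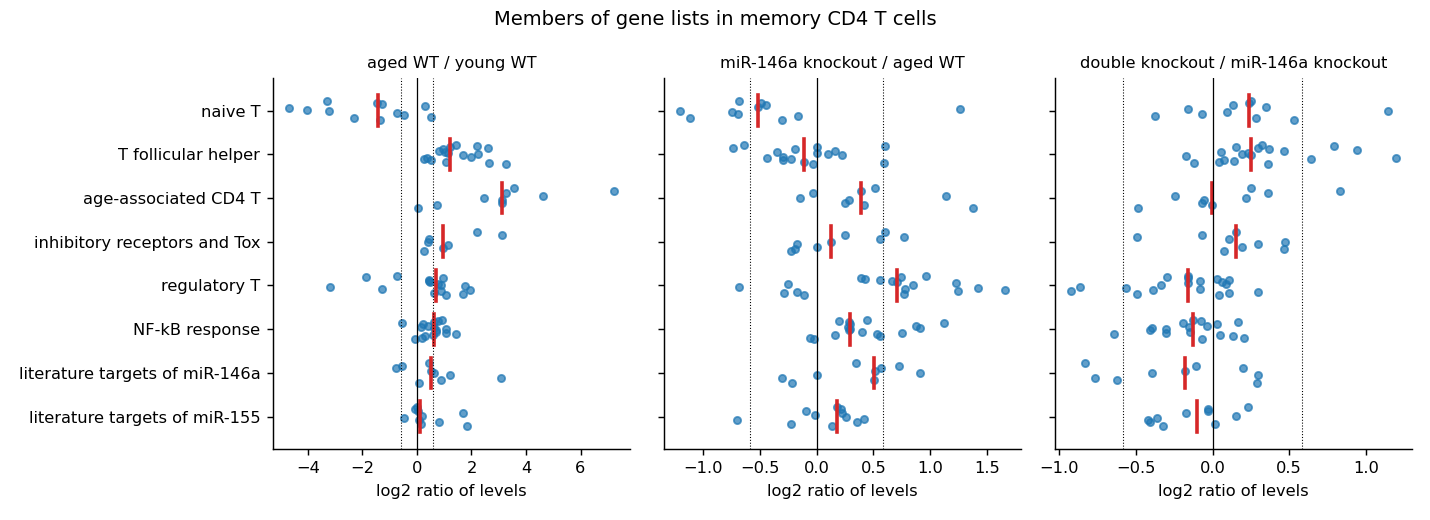
Log2 ratio of levels for each measured member (points) of 8 gene lists in the 3 comparisons, with the median of the list as a red bar and dotted lines at 1.5-fold; the axes differ between panels. Naive T genes lay low and follicular helper and age-associated genes high with age, and regulatory T genes had the highest median, 0.70, in the miR-146a knockout.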

How the data were processed

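The deposited files hold UMI counts per gene and barcode for 4 single-cell libraries, 31053 genes each, and a table of the authors' cell type names per barcode (16 names). Per the submitters' processing notes the authors made the counts with Cell Ranger 3.0.0 on mm10. The labels name both a 3' v2 and a 5' chemistry, so which end of a transcript was counted is not settled, and the filters behind the deposited counts are not stated in the labels. Doublets that the authors recognised were annotated apart, and no doublet caller was run.

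Counts were summed over the Mem Cd4 cells of each library and divided by their total (CPM), with exact Poisson 95% intervals for levels, a conditional exact binomial interval for ratios, Clopper-Pearson intervals for shares and log-normal (Katz) intervals for ratios of shares. With 1 library per group no test was run: a gene counts as higher or lower at a ratio of 1.5 or more with 1 count added, among genes with at least 20 UMIs over both libraries. A level of 0 is set against a floor of 3 UMIs in that library. Shares of Mem Cd4 cells in which a gene was detected were read after thinning each cell to 1000 UMIs, which left out 7, 7, 25 and 14 cells. Groups of cells by a UMI of Sostdc1, Foxp3, Ccr7 or Lef1, and shares over all CD4 cells, were read at the cells' own depth. That depth differs between libraries. Named genes were, per comparison and direction, the 10 whose interval bound nearest 1 lay farthest from 1, given an interval wholly beyond 1.5-fold and, in the library with the higher level, 50 or more UMIs from 20 or more cells. Genes at less than 20% of their highest level among Fo B, Nai Cd8, Mem Cd8, NK and myeloid cells were left out (Cebpb, Cybb, Apoe and Dapl1 with age, and Fcer1g, S100a8, S100a9, Ifitm2, Lyz2, Camp, Ngp and Ccl5 in the miR-146a knockout), as were immunoglobulin, T cell receptor, haemoglobin, mitochondrial, ribosomal, sex-linked and unnamed genes. The 5 markers, Cd4, Mir155hg and the highest and lowest member of each list were added, and other members named as examples were chosen after their values were seen. A few genes that the rule or the lists would name are not reported here. The members, the 19 T cell lists and the 7 lists of other cell types were chosen with earlier results of these data known.

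Alternatives were edgeR 4.0.16 TMM factors (R 4.3.3), totals without ribosomal and mitochondrial genes, the mean over cells, other minimums, added counts and folds, other denominators, thinning, and leaving out cells by their genes. Computations used Python 3.11.15, numpy 2.4.6, scipy 1.17.1, pandas 2.3.3 and matplotlib 3.10.9, and the code was tested on simulated data.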

Additional observations from a re-analysis of the deposited data

Results flagged for a closer look

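Barcodes without a name in the authors' annotation, which entered no comparison, held transcripts of the genes described above. Sostdc1 was at 27.1 CPM in aged WT, at 50.1 with miR-146a deleted and at 63.2 with both microRNAs deleted, and it had no UMI in the 805 unannotated barcodes of young WT. Spp1 was at 30.7 CPM in the library of the miR-146a knockout and at 16.7 in that of the double knockout, against 1.40 in young WT and 5.36 in aged WT. Il1r2 was at 11.7 and 11.9 CPM in these 2 libraries, against 3.51 in young WT and 10.0 in aged WT, so that the aged libraries lay close together. All 7 values lay above the level of young WT, taken here as the control.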

How the results depend on the processing

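Each group was 1 library of pooled mice, so the intervals carry counting error alone, and genes under 20 UMIs were not read. No paired analysis was possible because each group has 1 library and the result comes from no test. Settings are those named under the processing of the data, and leaving out cells with Ccr7 or Lef1, with Sostdc1, or with 11 defining markers was chosen after seeing the data. Of the list medians 868 stayed within counting error, 33 moved further and 2 changed sign, and of the values of named genes 522 stayed, 93 moved and 7 changed sign. Of the percentages of cells with a UMI of a label marker, 32 moved beyond their interval at 1500 UMIs or at the cells' own depth and 8 did not (Sostdc1 in aged WT was at 19.8%, 27.4% and 24.4%). The order of the libraries stayed, except that Angptl2 at 1500 UMIs was at 13.5% in aged WT and 13.4% in the miR-146a knockout. None of the medians and named genes moved under TMM, under totals without ribosomal and mitochondrial genes, or under the mean over cells. Counts of genes past the fold, main value first, follow.

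With age, 1181 higher genes became 264 at 100 UMIs or more, 3534 with no minimum, 454 at 2-fold, 625 without cells holding Foxp3, Il2ra or Ikzf2, and 239 without cells holding 2 or more UMIs of the lists of other types, which kept only 56, 53, 21 and 39 cells. The 532 lower genes became 806 under TMM, 853 without ribosomal and mitochondrial genes in the total, 93 at 100 UMIs, 1941 with no minimum, 138 at 2-fold and 153 in those few cells. In the miR-146a knockout the 554 higher genes became 85 at 100 UMIs, 1513 with no minimum, 172 at 2-fold, 328 without cells holding Foxp3, Il2ra or Ikzf2 and 103 in the few cells, and the 613 lower genes 62, 2134, 111, 294 and 96. Between the 2 knockouts the 421 higher genes became 40 at 100 UMIs, 1922 with no minimum, 98 at 2-fold and 85 in the few cells, and the 510 lower genes 47, 2280, 93 and 76, with 287 without cells holding Foxp3, Il2ra or Ikzf2.

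The naive T median with age was −2.11 without cells holding Foxp3, Il2ra or Ikzf2 and −0.23 in the few cells. In the same order of comparisons it was 0.29 and 0.057 (few cells) for miR-146a knockout against aged WT, then −0.55 and −0.53 (few cells) between the knockouts. Without cells holding Foxp3, Il2ra or Ikzf2 the regulatory median with age was 1.42, and the Th17 median against aged WT was −1.23 without miR-146a and −0.069 without both microRNAs, both changes of sign. The age-associated median was 0.11 in the miR-146a knockout without cells holding Sostdc1 and −0.25 in the few cells, and in the double knockout 0.28 without cells holding Foxp3, Il2ra or Ikzf2 and 0.35 without those holding Ccr7 or Lef1. In the few cells the inhibitory receptor median with age was 1.54 and the NF-kB median of the miR-146a knockout −0.24. Single genes changed sign: Lonp1 in the double knockout (−0.61 without cells holding Foxp3, Il2ra or Ikzf2), and, in the few cells, Arl5a (−0.13) and Ms4a4b (0.31) in the miR-146a knockout, Ctsl (−0.98), Ascl2 (−1.56) and Txnrd2 (0.022) in the double knockout, and Sostdc1 (−0.32) in the double knockout against aged WT. The cause was not tested, beyond the smaller number of cells. The ratio of Mem Cd4 shares with age was 2.70 among T cells and 2.79 among CD4 cells, and in the miR-146a knockout 1.26 among CD4 cells.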
